A study of Mus musculus with 5 samples.

Results

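Epithelial cells of the mouse ileum whose Reg3b and Reg3g transcripts made up at least 0.5% of all their UMIs (unique molecular identifiers, 1 per captured transcript) are described here. They came from 1 droplet library of the ileum and numbered 139 of 847 ileal epithelial cells, of 3342 ileal barcodes and of 16535 barcodes in the whole series. A member had at least 300 genes, at most 20% mitochondrial UMIs, at least 5 UMIs of Epcam, Krt8 and Krt18 together, under 1% of UMIs in the goblet genes Muc2, Tff3 and Zg16, and at most 1 UMI of the leukocyte gene Ptprc. The other 708 epithelial cells, which met the same limits with a Reg3 share under 0.5%, are called Reg3-low. The members were chosen by their measured Reg3b and Reg3g levels, so these levels are given as a description and were not tested.

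The study made 1 single-cell library for each of 5 segments of mouse intestine (duodenum, jejunum, ileum, colon, rectum), with epithelial, mesenchymal and immune cells in each. Propidium iodide, a dye taken up by dead cells, was used in the sort, and unstained cells were kept. The labels used here name the segment, and give no strain, genotype, age, sex, treatment or number of animals. No segment was replicated, so no comparison inside the ileum has a test, and a gene is called higher or lower there by a rule of size: at least 2-fold on the log2 scale of CPM + 5 (CPM, the UMIs of a gene per 1e6 UMIs, summed over the cells of a group), with at least 50 UMIs over both groups.

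Reg3b and Reg3g encode secreted C-type lectins that small-intestinal epithelium releases into the lumen; Reg3g binds peptidoglycan and acts on Gram-positive bacteria, and helps to keep bacteria away from the villus surface. Their transcription is known to respond to microbes and to the cytokine IL-22, which signals through STAT3. Enterocytes are born in crypts and turn on digestive and lipid-handling genes as they move up the villus, and Fabp6, the bile acid binding protein of ileal enterocytes, and Naaladl1, a brush-border peptidase, mark the distal small intestine.

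The Reg genes lie together on mouse chromosome 6, from 78370885 to 78468874 in GRCm38.p6, in the order Reg3b, Reg3d, Reg3a, Reg2, Reg1 and Reg3g. Reg3b runs from 78370885 to 78373466, Reg3a from 78380709 to 78383839 and Reg3g from 78466269 to 78468874, and all 3 are protein-coding genes. Their promoter windows are shown because these genes were high in the same cells while Reg3b and Reg3g differed between crypt and enterocyte clusters. Each is read 5′ to 3′ from 250 bases before to 50 bases after the gene's start, from RefSeq on GRCm38.p6, and lies at chr6:78370635-78370934 on the plus strand (Reg3b), chr6:78380459-78380758 on the plus strand (Reg3a) and chr6:78468825-78469124 on the minus strand (Reg3g). Capitals mark matches, on either strand, to TTCNNNGAA, the core motif of STAT factors, and to TATAAAA, the TATA box.
Reg3b: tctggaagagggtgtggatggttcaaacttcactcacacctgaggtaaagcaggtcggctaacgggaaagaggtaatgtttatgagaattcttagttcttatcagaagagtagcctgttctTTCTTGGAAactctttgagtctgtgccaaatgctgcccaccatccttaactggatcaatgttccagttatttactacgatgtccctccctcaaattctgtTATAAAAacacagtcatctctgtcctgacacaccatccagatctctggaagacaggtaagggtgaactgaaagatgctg
Reg3a: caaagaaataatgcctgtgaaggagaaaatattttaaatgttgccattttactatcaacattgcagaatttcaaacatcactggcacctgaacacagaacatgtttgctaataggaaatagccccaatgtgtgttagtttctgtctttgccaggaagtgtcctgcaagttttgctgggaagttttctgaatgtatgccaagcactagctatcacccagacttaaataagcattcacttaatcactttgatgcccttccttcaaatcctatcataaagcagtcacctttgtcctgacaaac
Reg3g: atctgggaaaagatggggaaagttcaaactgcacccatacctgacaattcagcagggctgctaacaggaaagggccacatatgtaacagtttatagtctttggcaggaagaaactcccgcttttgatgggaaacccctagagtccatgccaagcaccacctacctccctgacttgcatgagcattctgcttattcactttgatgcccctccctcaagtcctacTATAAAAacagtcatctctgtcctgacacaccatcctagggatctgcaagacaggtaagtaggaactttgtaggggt
The STAT motif was found once in the Reg3b window, from base 122 to base 130 (TTCTTGGAA), and was not in the Reg3a and Reg3g windows. It was in 8.33% of 32544 promoter windows of 300 bases. TATAAAA was in the Reg3b window from base 222 and in the Reg3g window from base 224, against 5.44% of all windows. The motifs did not overlap each other. Aligned over their length, the Reg3b and Reg3g windows were identical at 210 of 300 bases (70.0%), the highest of the 15 pairs of Reg genes, whose other values ran from 53.0% to 61.3%. Their longest shared run was 29 bases, acagtcatctctgtcctgacacaccatcc, and started at base 231 of each window. A match describes letters only.

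The libraries held 2884 to 4355 barcodes and 41953568 to 65546664 UMIs, and the ileal library held the fewest UMIs. The epithelial rule kept 688 to 1038 cells per library. Between 2 and 5 barcodes were shared between the ileal library and each other library, and 1 member's barcode also occurred in the jejunal one. Free RNA was gauged in 577 ileal immune cells with at least 2 Ptprc UMIs and no UMI of the epithelial genes, at a median depth of 3758 UMIs. None of them reached a Reg3 share of 0.5% and their highest share was 0.0568%. Their summed levels were 12.5 CPM of Reg3b, 10.5 CPM of Reg3g and 179 CPM of Fabp6.

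Cells past the Reg3 threshold made up 16.4% of ileal epithelium (139 of 847; exact 95% binomial interval 14.0% to 19.1%, counting error only). By the same rule they were 0.289% in duodenum (3 of 1038), 3.71% in jejunum (28 of 755; 2.48% to 5.32%), 0.889% in colon (7 of 787) and 0 of 688 in rectum, which allows a share of up to 0.436%. The intervals of ileum and jejunum do not overlap, but with 1 library each the segment and the library cannot be told apart. Over all epithelial cells of each library, Reg3b stood at 68.8, 483, 1346, 92.5 and 0 CPM from duodenum to rectum, and Reg3g at 102, 412, 1274, 68.6 and 0.590 CPM. Reg3a followed another order, with 367, 850, 383, 3.91 and 0 CPM and its highest level in jejunum. Reg1, which encodes another secreted lectin of the family, stood at 662 CPM in duodenum, 196 in jejunum and 17.5 in ileum.

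Among the members the Reg3 share ran from 0.508% to 4.03% with a median of 0.776%, against a range of 0% to 0.499% and a median of 0.0639% in Reg3-low cells. Near the threshold the cells formed no gap: 37 cells lay from 0.4% to 0.5% and 31 cells from 0.5% to 0.6%. Just outside, the summed levels were 2095 CPM of Reg3b, 2393 CPM of Reg3g and 4565 CPM of Lypd8, and just inside they were 2794, 2806 and 5063 CPM. The label held against its markers: Fabp6 had a UMI in 139 of 139 members (immune cells 58.4%, with median depths of 29921 and 3758 UMIs), and made up 0.0870% to 11.9% of a member's UMIs, with a median of 4.25%. Naaladl1 had a UMI in 134 members. Fabp6 and Naaladl1 did not separate the classes in enterocyte-like cells. There Fabp6 stood at 53227 CPM in members and 46574 CPM in Reg3-low cells, and Naaladl1 had per-cell medians of 1096 and 1173 CPM. Naaladl1 was not particular to the ileum, with 516 to 675 CPM in jejunal enterocyte-like clusters and 789 to 1695 CPM in ileal ones. Fabp6 had no UMI in those jejunal clusters.

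Members were deeper than Reg3-low cells, with a median of 29921 against 16895 UMIs and 4955 against 3812 genes, and similar in mitochondrial share (9.18% against 9.08%). Over all 847 cells the part of depth in the differences below was not tested. After pairing the cells by depth, the numbers of genes past 2-fold are given, and single values only for Igkc and Jchain. Levels of the other genes are given without pairing. A total of 171 ileal barcodes had the Reg3 share. Of the 32 that were left out, 19 exceeded the mitochondrial limit, 8 had too few epithelial UMIs, 5 had too many goblet UMIs, 2 had too much Ptprc and 1 had too few genes, with some failing more than 1 limit.

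Clustered without Reg genes, the ileal epithelium gave 12 clusters, and the members lay in 8 of them. Of the 139, 92 were in enterocyte-like clusters, 41 in the unnamed clusters 3 and 7, and 6 in cluster 10, which was led by B-cell genes. None was in the crypt stem-like (94 cells), cell-cycle-like (75), Paneth-like (26) or enteroendocrine-like (15) clusters. The share of members was highest in enterocyte-like cluster 5, with 42 of 84 cells (50%; 38.9% to 61.1%), then in enterocyte-like cluster 8 (30 of 80, 37.5%) and unnamed cluster 3 (21 of 84, 25%). It was 1 of 57 in enterocyte-like cluster 6, the cluster with Ada, an adenosine deaminase known from the villus tip. The 6 members in cluster 10 had a median of 1360 UMIs and 574 CPM of Igkc, whereas the 49 Reg3-low cells there had 231135 CPM of that antibody light chain. Without cluster 10, the share of members was 16.8%.

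**Figure D1:**
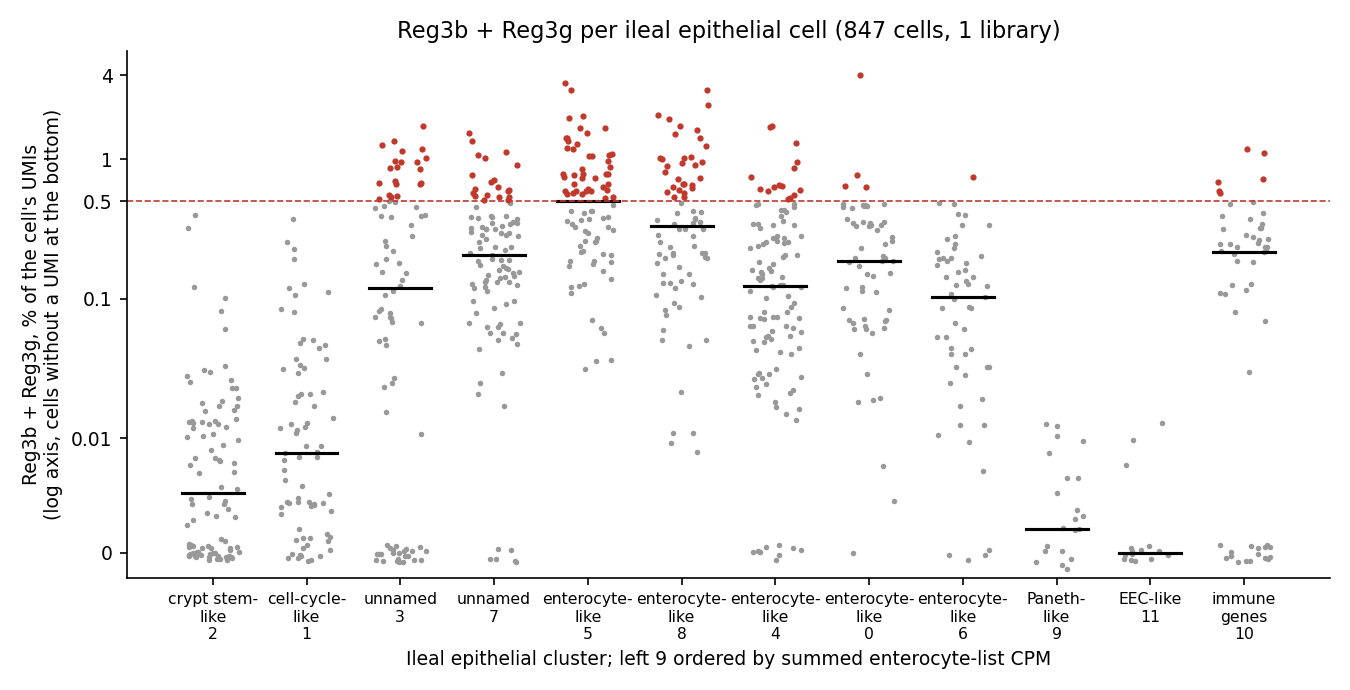
Reg3b + Reg3g as a percentage of each cell's UMIs (log axis) for 847 ileal epithelial cells of 1 library by cluster; red points are the 139 members, grey points Reg3-low cells, black lines cluster medians, the dashed line the threshold of 0.5%, and EEC-like means enteroendocrine-like. The crypt stem-like and cell-cycle-like clusters hold no member, and cluster 5 holds 42.

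Ordered by the summed level of 15 enterocyte genes, and leaving aside the Paneth-like, enteroendocrine-like and immune-gene clusters, the other 9 clusters ran from 969 CPM in the crypt stem-like cluster 2 to 103544 CPM in cluster 6, and the Reg3 lectins peaked between these ends. Reg3b was at 18.7 CPM in cluster 2, at 1832 in unnamed cluster 3, at 3790 in cluster 5, at 3164 in cluster 8 and at 749 CPM in cluster 6. Reg3a was at 6.45, 296, 1086, 1141 and 78.7 CPM in the same clusters. Lypd8, which encodes a GPI-anchored protein that binds flagellated bacteria, was at 1006, 3530, 7980, 6280 and 554 CPM. The course between the ends was not even. In unnamed cluster 7, next to cluster 5 in this order, Reg3b was at 1386 and Lypd8 at 1979 CPM. In enterocyte-like clusters 4 and 0 Reg3b was at 1428 and 1840 CPM, and Lypd8 at 1578 and 2095 CPM. Clusters 7 and 4 were shallow, with medians of 7389 and 8598.5 UMIs, and the part of depth was not tested. Reg1 was highest in cluster 5 (79.8 CPM) and had no UMI in cluster 6. These genes, unlike the Reg genes, took part in the clustering where they were variable, so the cluster levels of Lypd8 are a description.

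**Figure D2:**
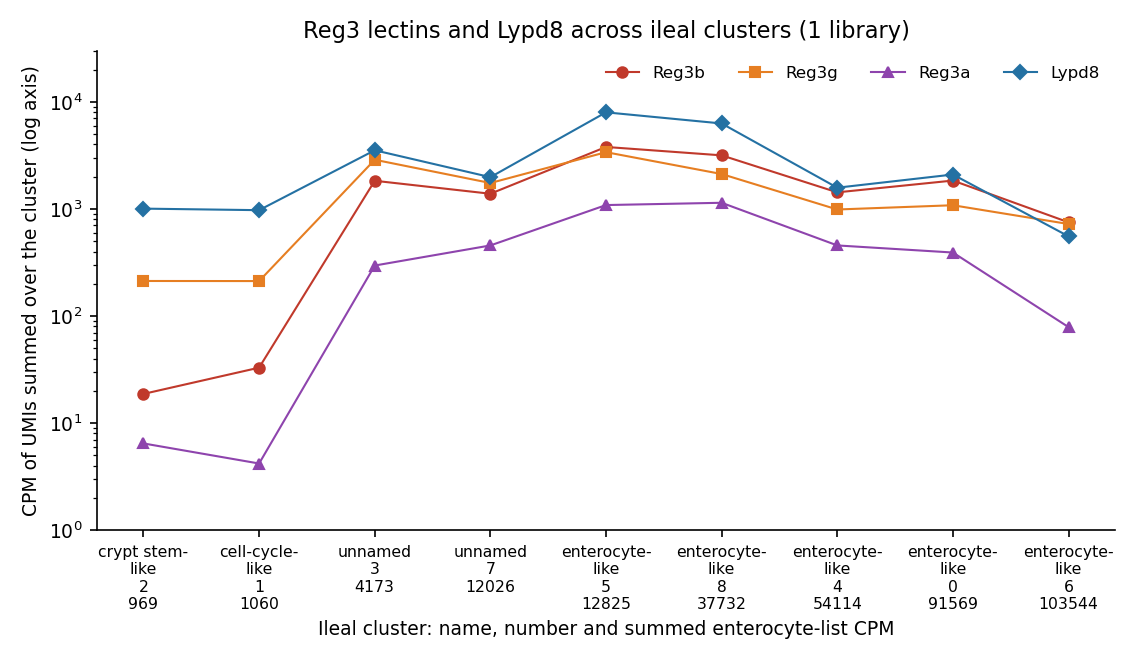
CPM of Reg3b, Reg3g, Reg3a and Lypd8 (log axis, UMIs summed over each cluster) in 9 ileal clusters ordered by the summed CPM of the enterocyte list, printed under each cluster number. Reg3b, Reg3a and Lypd8 are highest in clusters 5 and 8 and Reg3g in clusters 5 and 3, and all 4 are lower at both ends, with Reg3b at 18.7 CPM in cluster 2 and 749 CPM in cluster 6.

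Reg3b and Reg3g did not keep 1 ratio. Of their summed UMIs, Reg3g made up 89.0% in the ileal crypt clusters (1366 of 1534 UMIs in 169 cells; 87.4% to 90.6%), and 43.4% in the enterocyte-like clusters (42.9% to 43.9%). The unnamed cluster 3 lay between with 61.1%, and so did cluster 7 with 55.7%. The 3 other libraries with such values showed the same order: 93.3% in crypt clusters against 35.2% in enterocyte-like clusters of jejunum, 83.1% against 59.3% in duodenum and 56.2% against 25.1% in colon. The intervals of each pair do not overlap, but they cover counting error of pooled UMIs only. They leave out the spread between cells, and each segment has 1 library. The duodenal crypt clusters included cluster 13 (24 cells), led by Chgb, Ghrl and Cck, with 7 crypt stem and 7 enteroendocrine markers raised. The colonic enterocyte-like clusters included cluster 12 (51 cells), led by Fabp6. Rectal epithelium had no Reg3b UMI and 13 Reg3g UMIs and was not compared. Free RNA in ileal immune cells gave 45.6% from 68 UMIs (33.5% to 58.1%). Reg3b was at 18.7 and 32.9 CPM in ileal crypt clusters 2 and 1, near the 12.5 CPM of immune cells. Reg3g was at 212 CPM in each of these clusters, against 10.5 CPM. In jejunal crypt clusters 1 and 6 Reg3b was at 13.2 and 4.44 CPM, against 4.18 CPM in jejunal immune cells. The part of free RNA in the crypt shares was not tested. Among the members the ratio varied from cell to cell: Reg3g took 0% to 100% of the pair with a median of 42.0%, and over 50% in 53 of 139 cells. The share is compared between groups of cells and is no comparison of the levels of both genes, and where the counting program split reads between these related genes the values are uncertain.

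**Figure D3:**
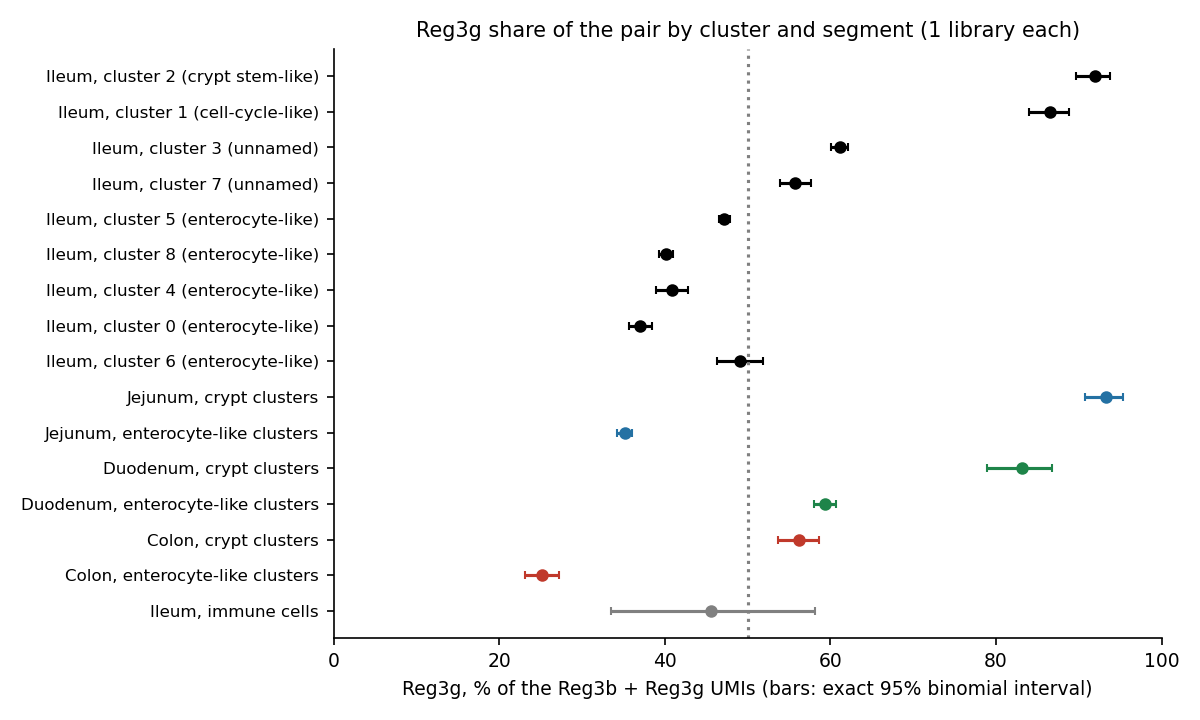
Reg3g as a percentage of the Reg3b + Reg3g UMIs in 9 ileal clusters, in crypt and enterocyte-like clusters of 3 other segments and in ileal immune cells, 1 library per segment; bars are exact 95% binomial intervals for counting error only. Crypt clusters lie to the right of enterocyte-like clusters in each segment, at 89.0% over both ileal crypt clusters.

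Against all Reg3-low epithelial cells, members had higher Lypd8, Reg3a and Fabp6 and lower crypt, Paneth and enteroendocrine genes. Of 10563 genes measured, 91 were at least 2-fold higher in members (0.861%) and 812 at least 2-fold lower (7.69%), and the median log2 difference of all genes was -0.01. Reg3a, the third lectin of the group, ranged from 0 to 3551 CPM per member with a median of 817 CPM, and from 0 to 3963 CPM with a median of 28.7 CPM in Reg3-low cells. The ranges overlap fully and the medians lie far apart. Summed over cells, Reg3a stood at 1078 against 240 CPM, a log2 difference of 2.14 and the largest increase by the naming rule. Lypd8 had a per-cell median of 4872 against 1119 CPM and summed levels of 6984 against 1978 CPM (log2 difference 1.82).

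Other genes at the head of the list were Ms4a18, a membrane protein gene (159 against 40.8 CPM), Slfn5, a Schlafen gene known from interferon responses (29.9 against 6.20), and Slc40a1, the iron exporter ferroportin (27.5 against 6.26). Ugt2b5 and Ugt2b36, which conjugate steroids and xenobiotics, differed by 1.59 and 1.34 on the log2 scale. Car4, a membrane carbonic anhydrase, stood at 212 against 71.5 CPM. Bmp3, a BMP family ligand, stood at 82.1 against 29.1 CPM, and Plac8 at 3038 against 1192 CPM. Gsdmc4, a gasdermin gene, was at 42.0 against 11.8 CPM, with its level in cluster 3 among the genes that define that cluster. After pairing cells by total UMIs, 16 genes were 2-fold higher and 563 lower, and all 16 were among the 91.

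Among the lower genes were those of cell types with no members. All 14 Paneth genes, all 10 enteroendocrine genes measured, 16 of 17 cell-cycle genes and 9 of 10 crypt stem genes were at least 2-fold lower, beside 7.69% of all genes. Olfm4, a crypt stem gene, was at 9.34 against 1642 CPM, and Defa24, a Paneth alpha-defensin, at 56.6 against 35496 CPM. Lgr5, the receptor that marks crypt stem cells, had no UMI in members and 27.5 CPM in Reg3-low cells. The immune list summed to 86.5 CPM in members and 3848 CPM in Reg3-low cells, which included 49 cells of cluster 10. Per cell the medians were 51.7 and 66.9 CPM, with ranges of 0 to 5533 CPM in members, of which 34 were at 0, and 0 to 646226 CPM in Reg3-low cells, of which 201 were at 0. Stromal and red cell markers were at 1.65 and 3.30 CPM in members, with none detected of 4 of 7 and 1 of 4 genes.

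Lists of genes with known roles in enterocytes gave a mixed picture. Of all genes, 0.861% were 2-fold higher and 7.69% lower. Of 10 bile acid genes measured, 4 were 2-fold higher and none lower. These 4 were Fabp6 (43846 against 18866 CPM), the basolateral exporter subunits Slc51a and Slc51b, and Nr1h4, the bile acid receptor FXR. Sis, the brush-border sucrase-isomaltase, was at 2990 against 1277 CPM and was the only 1 of 15 hydrolases past 2-fold. Ccl25, a chemokine that draws lymphocytes to the small intestine, stood at 1314 against 592 CPM, and Il18, an epithelial cytokine, at 154 against 62.3 CPM. Of 15 enterocyte genes, none was 2-fold higher and 3 were lower: Apoa4, Fabp1 and Rbp2, which handle dietary lipid and retinol.

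Genes of the paths known to induce Reg3 lectins are given as levels, and what induced Reg3 in these cells was not tested. Of 9 genes of the IL-22 and STAT3 path measured, 0 were 2-fold higher or lower, beside 0.861% and 7.69% of all genes. The list median was 0.13, with 8 of 9 above 0, against 5220 of 10563 over all genes. In enterocyte-like clusters the median was -0.13, with 2 of 9 above 0. Stat3 itself was at 40.1 against 34.7 CPM and Socs3, a feedback inhibitor of STAT3, at 15.1 against 13.4 CPM. Il22ra1, the receptor subunit, had 9 UMIs in members (2.47 against 2.14 CPM), too few for a fold. Of 9 microbe-sensing genes, Il18 was 2-fold higher and Irak1, a kinase of Toll-like receptor signalling, lower (12.6 against 32.5 CPM). Nlrp6, an inflammasome sensor, was at 253 against 170 CPM. Lcn2, S100a8, S100a9, Saa2 and Saa3, defence genes known from inflamed gut, had no UMI in members, and Saa1 had 4.

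When the comparison was held to enterocyte-like clusters, with 92 members and 303 Reg3-low cells at median depths of 32241 and 16240 UMIs, 19 of 7990 genes were 2-fold higher (0.238%) and 103 lower (1.29%). Several genes of lipid and retinol handling were among the lower ones. Apoa1, an apolipoprotein of chylomicrons and HDL, ranged from 24.6 to 44623 CPM per member with a median of 7021 CPM, and from 286 to 58986 CPM with a median of 17734 CPM in Reg3-low cells. Fabp2, the intestinal fatty acid binding protein, had medians of 4543 and 21340 CPM, and Rbp2, a retinol carrier, of 78.2 and 686 CPM. In each case the ranges overlapped while the median of the members lay below the lower quartile of the Reg3-low cells. The summed differences on the log2 scale were -1.12 for Apoa1, -1.55 for Fabp2, -2.29 for Rbp2, -2.65 for Fabp1 and -3.05 for Apoa4.

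Of the 15 enterocyte genes, 6 were 2-fold lower, beside 1.29% of all genes. The other 9 lay between -1 and 0 on the log2 scale, and the list median was -0.81 against -0.01 over all genes. Clusters 5 and 8 held 72 of the 92 members but 92 of the 303 Reg3-low cells, and over all epithelium, with Reg3-low cells weighted to the members' mix of clusters, the list median was -0.06. Lipid uptake genes had a median of -0.64 (6 of 19 lower), sugar, peptide and amino acid transporters also -0.64 (4 of 16 lower), and hydrolases -0.68 (3 of 15 lower, among them lactase, Lct, at 75.9 against 313 CPM). Bile acid genes, which had been higher over all epithelium, had a median of -0.02, and Fgf15, the hormone that ileal bile acids induce, was lower (120 against 254 CPM). Cyp3a11 and Cyp2b10, xenobiotic monooxygenases, were also lower (9.82 against 68.7 CPM and 6.42 against 49.3 CPM), as were Asah2, a ceramidase, and Apoc2.

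The higher genes in enterocyte-like members included Bmp3 (64.2 against 18.3 CPM), the tetraspanins Cd9 (63.1 against 15.1) and Tspan1 (100 against 35.2), and the keratin Krt7 (68.7 against 23.8). Cd9 and Krt7 had shown nearly the same level over all epithelium (log2 differences of -0.01 and 0.07). Fgfbp1, a carrier of fibroblast growth factors, Ly6a, a surface antigen, and Prom1 were also 2-fold higher. Reg3a remained higher at 1301 against 580 CPM, and Lypd8 at 7923 against 3588 CPM. Pycard, the inflammasome adaptor, was at 685 against 324 CPM. The part of depth in these differences was not tested within the enterocyte-like clusters.

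Across 6 ranges of the Reg3 share within enterocyte-like cells, Lypd8 was higher at each step, from 1824 CPM in 69 cells under 0.05% to 10263 CPM in 34 cells at 1% or more. Plac8 and Bmp3 were also higher at each step, from 1836 to 3802 CPM and from 9.25 to 86.8 CPM. Reg3a went from 204 to 1498 CPM with 1 small step down, and Krt19, a keratin, from 1970 to 4086 CPM. Apoa1 was lower at each step, from 19231 to 5554 CPM. Fabp2 lay between 21158 and 29586 CPM in the 4 ranges under 0.5% and at 4660 CPM at 1% or more, and Rbp2 between 700 and 1285 CPM and at 113 CPM. Ada was at 179 CPM in the lowest range and had no UMI in the other 5. Nlrp6 stayed between 221 and 249 CPM, and Sis between 2844 and 3463 CPM. Median depth went up with the ranges from 11466 to 37047 UMIs.

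**Figure D4:**
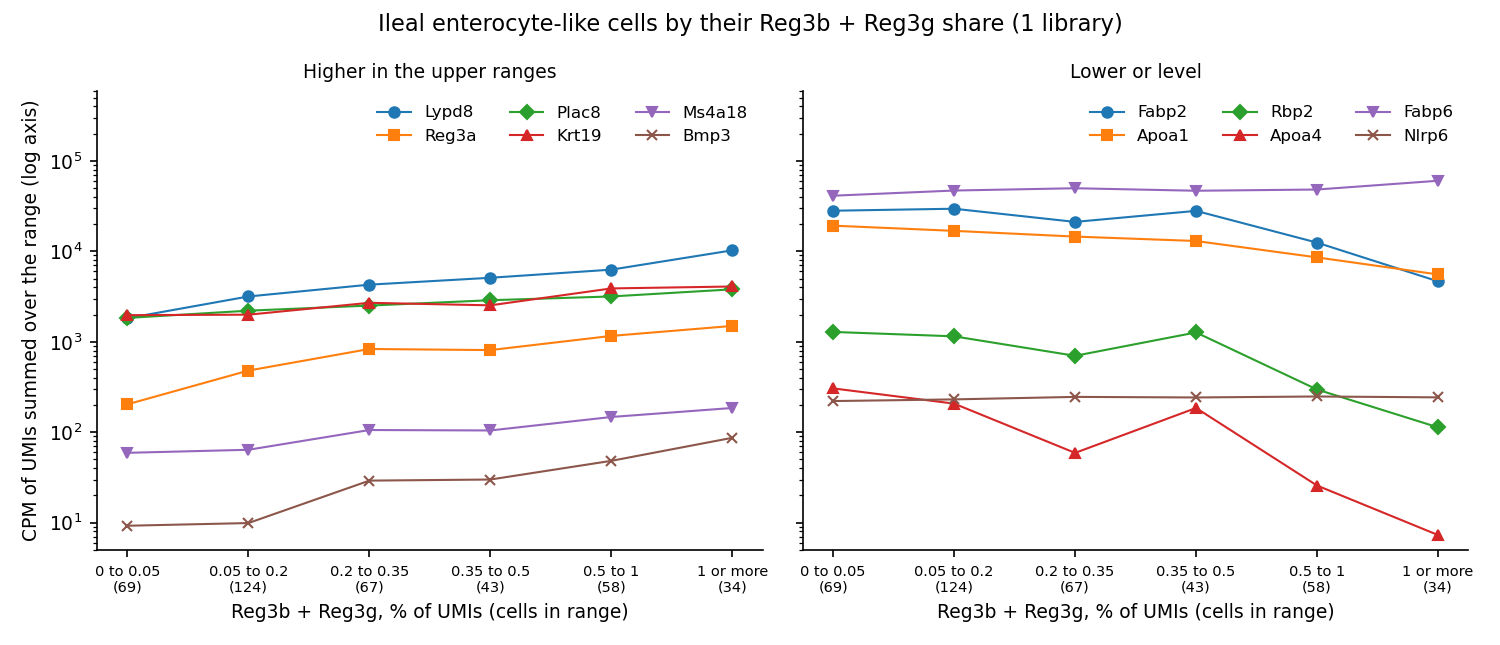
CPM (log axis, UMIs summed over the cells of a range) of 12 genes in 395 ileal enterocyte-like cells of 1 library, by Reg3b + Reg3g share in percent of UMIs with the number of cells in brackets. Lypd8 goes from 1824 to 10263 CPM and Rbp2 from 1285 to 113 CPM, while Nlrp6 stays between 221 and 249 CPM.

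When Reg3-low cells were weighted to the members' mix of clusters, a setting chosen after seeing the data, hardly any gene stayed 2-fold apart. Of 8848 genes, 1 was higher (0.0113%) and 32 were lower (0.362%), and 0 of the 91 higher genes above remained 2-fold higher. The enterocyte list had a median of -0.06 and the bile acid list 0.14, and Il18 changed sign to -0.093. Igkc (49.7 against 4357 CPM) and Jchain (9.07 against 753 CPM) were lower. Both were high in the Reg3-low cells of cluster 10. The 32 lower genes also included Fabp1 (39.8 against 196 CPM), Apoa4, Reg1 (14.0 against 76.5 CPM) and the cell-cycle genes Ube2c and Birc5. Reg1 had a UMI in only 6.73% of ileal epithelial cells. At a threshold of 0.1% it went the other way in ileal enterocyte-like cells (36.3 against 4.48 CPM). Reg3a, Bmp3 and Plac8 were higher in members in 5 of 5 clusters with at least 15 cells on each side, and Lypd8 in 4 of 5. The sizes were small after weighting, with log2 differences of 0.61 for Reg3a, 0.76 for Bmp3, 0.18 for Plac8 and 0.50 for Lypd8.

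**Figure D5:**
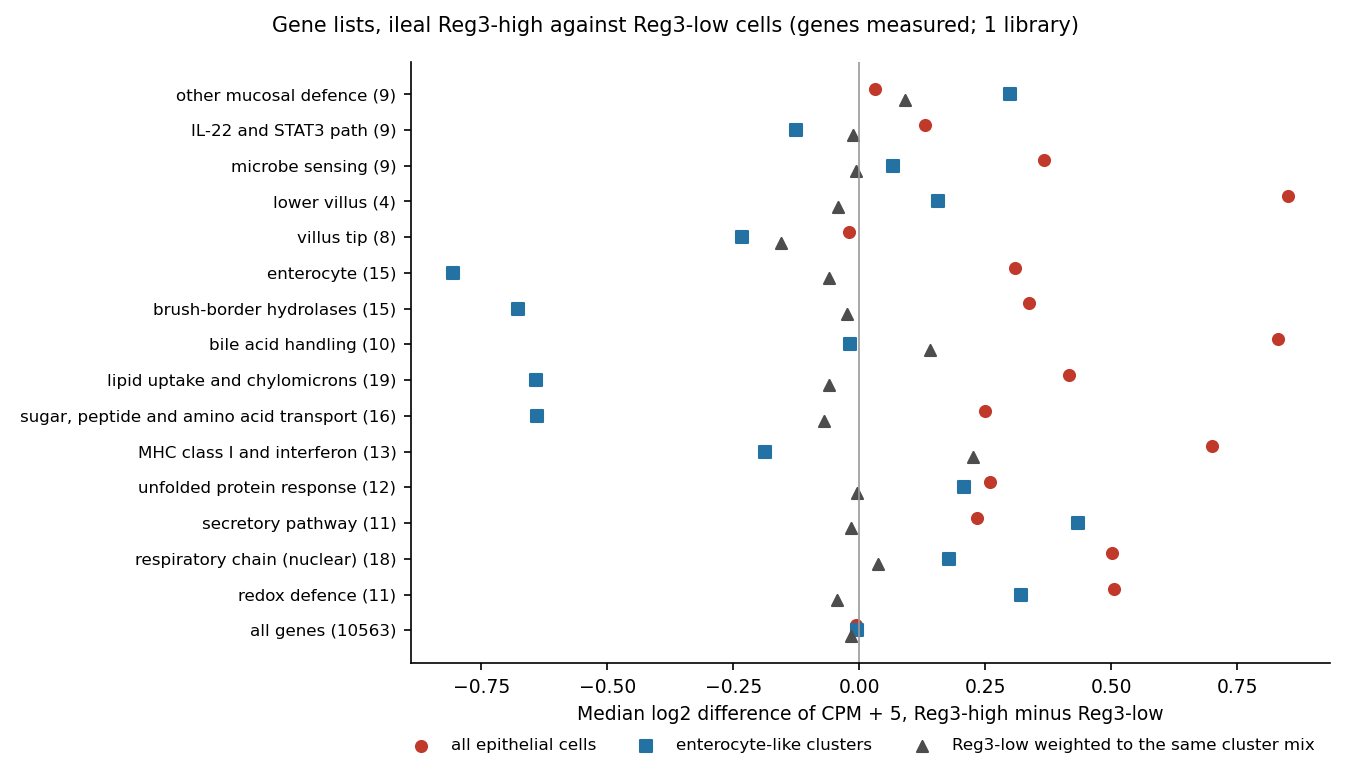
Median log2 difference of CPM + 5 between ileal Reg3-high and Reg3-low cells of 1 library for 15 gene lists and all genes, with the number of genes measured over all epithelium in brackets; red circles are all epithelial cells, blue squares enterocyte-like clusters, grey triangles Reg3-low cells weighted to the members' cluster mix. The enterocyte list stands at 0.31, -0.81 and -0.06.

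Across libraries, UMIs summed per library and Reg3 class were compared with the edgeR quasi-likelihood test with library as a block, without Reg3b and Reg3g. Only jejunum and ileum had 20 cells in each class, so the test rests on 2 libraries and 1 residual degree of freedom, and measures the spread between these libraries. Of 11653 genes, 827 were higher (7.1%) and 1933 lower (16.6%) in Reg3-high cells at a Benjamini-Hochberg adjusted p under 0.05. Reg3a was higher in 2 of 2 libraries, at 1984 against 811 CPM in jejunum and 1089 against 240 CPM in ileum (log2 difference 1.73, SE 0.18, edgeR adjusted p = 6.23e-19). Lypd8 was higher in both, at 4292 against 2352 CPM and 7057 against 1980 CPM (log2 difference 1.35, SE 0.20, edgeR adjusted p = 6.36e-10), and Ms4a18 by 1.46 (SE 0.16, edgeR adjusted p = 3.63e-17). These levels leave the UMIs of Reg3b and Reg3g out of the totals and are not TMM-scaled. Of the 28 jejunal cells, 13 were in enterocyte-like clusters, 8 in unnamed ones and 7 in a cluster led by Paneth genes, which also held 56749 CPM of the enterocyte list. Yet over all 28 jejunal cells the Paneth genes Defa30 and Lyz1 stood at 4.87 and 3.65 CPM. In jejunal Reg3-low cells they stood at 3051 and 423 CPM. All 14 Paneth genes were lower in Reg3-high cells in the edgeR test. The 7 cells were not tested on their own. The ileal members included none in the Paneth-like cluster.

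By this test 7 of 10 bile acid genes, 6 of 15 hydrolases, 5 of 15 enterocyte genes and 7 of 14 MHC class I and interferon genes were higher, beside the 7.1% of all genes. A call did not need both libraries. Fabp6 was called higher (edgeR adjusted p = 0.00316) from ileum alone. It stood at 0 CPM in jejunal Reg3-high and 0.851 CPM in jejunal Reg3-low cells. Apoa4, Fabp1 and Rbp2 of the enterocyte list were lower (3 of 15; edgeR adjusted p = 0.0103, 0.0333 and 0.0491), each higher in 1 of 2 libraries. Of the IL-22 and STAT3 path, 1 of 10 was higher and 0 lower. All 11 crypt stem genes and all 17 cell-cycle genes were lower, beside 16.6%. Without the library term the same sums gave 0 genes in either direction (1330 at an unadjusted p under 0.05), and DESeq2 with the block gave 278 higher and 527 lower.

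With the threshold lowered to 0.1%, a setting chosen after seeing the data that takes in duodenum and colon, 2668 of 11595 genes were higher (23%) and 2207 lower (19%). Reg3a was higher in 4 of 4 libraries (log2 difference 2.03, SE 0.43, edgeR adjusted p = 0.00906), Lypd8 in 4 of 4 (1.18, SE 0.27, edgeR adjusted p = 0.0115) and Plac8 in 4 of 4 (edgeR adjusted p = 0.0201). Of the IL-22 and STAT3 path, 6 of 10 genes were higher and 0 lower in this fit, with a list median of 0.57 against 0.07 over all genes. Leaving out duodenum gave 533 higher and 1109 lower, leaving out jejunum 1385 and 1507, and leaving out ileum 1439 and 1237. Held to enterocyte-like clusters of duodenum, jejunum and ileum, edgeR gave 0 of 9435 genes in either direction, with 503 at an unadjusted p under 0.05. Bmp3 was then higher in 3 of 3 libraries (log2 difference 1.29, SE 0.29, edgeR adjusted p = 0.744), and Reg3a and Lypd8 in 2 of 3. In duodenal enterocyte-like cells Reg3a was at 851 CPM in the Reg3-high class and 882 CPM in the Reg3-low class.

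The genes whose UMIs followed Reg3b and Reg3g most closely over 771 ileal epithelial cells thinned to 2000 UMIs were Fabp6 (Spearman rho 0.52), Lypd8 (0.52), Krt8 (0.51), Sis (0.50) and Reg3a (0.50), then Phgr1, Clec2h, Plac8, Lgals4 and Spink1. All points share 1 library. Within 389 enterocyte-like cells the order changed: Lypd8 (0.50), Reg3a (0.41) and Plac8 (0.38) stayed high, whereas Fabp6 was at 0.10 and Sis at 0.04. Krt8 is part of the rule that chose epithelial cells.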

How the data were processed

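Per the labels, PI-negative cells of 5 mouse intestinal segments went onto the 10x Genomics platform, and 150-bp paired reads were made. The values deposited by the authors are raw UMI counts, 1 whole number for each gene in each barcode. They were made on mm10, and Cell Ranger 4.0.0 and Seurat are named, per the submitters' processing notes, whereas per the file headers cellranger 7.2.0 wrote the counts. The spatial data were not analysed here.

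The members and gene lists were chosen with earlier results of these data known. Epithelial cells of each library were clustered on their own, without Reg genes, on 2000 variable genes, 30 components and 15 neighbours (scanpy 1.11.5, Leiden resolution 1 in igraph 0.11.9). A cluster name needed at least 3 of its markers at least 1.5-fold above the other clusters, carries "like" because it rests on transcripts, and rebuilt names may differ from the study's. Doublets were scored with Scrublet (0.8% per 1000 barcodes) and kept: the highest scores took in 1 member and 11 Reg3-low cells.

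UMIs were summed per group, with a prior of 5 CPM for folds. Binomial intervals are exact (Clopper-Pearson, 95%), a count of 0 was given a floor of 3 counts, and both cover counting error only. Across libraries with at least 20 cells in each class, summed counts were tested with edgeR 4.0.16 (R 4.3.3; quasi-likelihood, TMM, filterByExpr, Benjamini-Hochberg at 0.05, library as a block), and with DESeq2 1.42.0 as an alternative. The scripts were tested on simulated data. Both classes of a library come from the same cell suspension, so the block is the library.

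Named are list members, the 15 genes with the largest folds in each direction in the ileum, 10 in each direction in enterocyte-like clusters and across libraries, and the 10 most like Reg3b and Reg3g, in each case detected in at least 10% of the cells of the higher group. Gene models without a name and genes of mitochondria, antibodies and T cell receptors were not named by this rule. Krt19, Oat, Rps2, Rpl39, Rsad2, Ifi44 and Cxcl10 were named after their values were seen. Promoters come from RefSeq. Alternatives changed the cell filters, the threshold, the prior, the UMI minimum, the scaling and the depth of cells.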

Additional observations from a re-analysis of the deposited data

Results flagged for a closer look

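Gsdmc4, a gasdermin gene, had opposite signs in the ileum and the jejunum: the log2 difference of Reg3-high minus Reg3-low cells was 1.49 in ileum (42.0 against 11.8 CPM) and -1.10 in jejunum, where Reg3-high cells held 2 UMIs. Ifit3, an interferon-stimulated gene, was also of opposite sign, with 1.16 in ileum and -1.36 in jejunum (13.3 against 42.0 CPM, 11 UMIs in Reg3-high cells). Neither difference between segments was tested. In the ileum 5 members held 56.7% of the 432 Ifit3 UMIs, and without them Ifit3 stood at 54.2 CPM in members.

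Reg3 signal also appeared outside the members. There were 19 ileal barcodes with the Reg3 share above the mitochondrial limit, at 7105 CPM of Reg3b and a median of 29.2% mitochondrial UMIs. Another 5 had the Reg3 share and a goblet share of at least 1%, with 5823 CPM of Muc2. In colon 7 epithelial cells passed the Reg3 share, against 0 of 688 in rectum. Of the 7, 4 were in colon cluster 12, led by Fabp6, Rbp2, Sis and Spink1. Fabp6 is a marker of ileal enterocytes, and the origin of these cells was not tested.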

How the results depend on the processing

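The share of members was 16.4%. It became 12.6% with no mitochondrial limit, 32.9% at a threshold of 0.25%, 5.55% at 1% and 19.9% after thinning cells to 1000 UMIs, and moved by less than its interval under the other 5 settings. The 91 higher and 812 lower genes became 348 higher at no more than 10% mitochondrial UMIs (all 91 among them), 159 and 1521 with a prior of 1 CPM, and 39 and 243 with a prior of 20 CPM. There were 42 higher with the mean over cells, 43 higher and 297 lower after thinning to 2000 UMIs, and 16 higher after pairing by total UMIs. Enterocyte-like clusters gave 19 and 103, and Reg3-low cells weighted to the members' clusters gave 1 and 32. Fewer genes could be tested in the thinned, paired, enterocyte-like and weighted settings (4280 to 8848); otherwise the cause was not tested.

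Across libraries, 827 higher and 1933 lower genes became 278 and 527 with DESeq2. The fit with no replicate block gave 0 and 0. A threshold of 0.1%, added after seeing the data, gave 2668 higher. With 1 library left out there were 533 higher and 1109 lower (without duodenum), 1385 and 1507 (jejunum), 1439 and 1237 (ileum), and 2430 and 2962 (colon). In enterocyte-like clusters at that threshold there were 0 and 0. At 0.5%, leaving out a library leaves no residual degree of freedom, and fits at 1%, at no more than 10% mitochondrial UMIs or in enterocyte-like clusters could not be made, since ileum alone had 20 cells in each class.

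Of 298 named genes measured, 102 were at least 2-fold apart, and 16 of these changed sign in some of 14 settings, as log2 differences. Sign changes of smaller differences were not counted: 10 of 15 enterocyte genes were above 0 over all epithelium and 0 of 15 in enterocyte-like clusters. By pairing, Igkc became 0.10 and Jchain 0.31. In enterocyte-like clusters Defa21 became 0.025, Fcgbp 0.072, Hmgb2 0.62, Ifitm2 1.40, Slc12a2 0.19, Slc7a9 -0.10, Spink4 0.034 and Tff3 0.38. Without the cluster of immune genes Jchain became 0.11. Weighted to the members' clusters, Chga became 0.038, Chgb 0.67, Defa21 0.043, Defa22 0.0096, Defa24 0.030, Fcgbp 0.091, Ifitm2 0.12, Il18 -0.093, Tff3 0.17 and Tifa 0.21. The cause was not tested. Receptors such as Il22ra1, with 9 UMIs in members, lie at the limit of this depth.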

Other observations

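Rsad2 and Ifi44, both interferon-stimulated genes, had the largest increases in members once Reg3-low cells were weighted to the members' clusters. They and Cxcl10 were chosen for naming after their values were seen. Rsad2, the antiviral viperin, stood at 91.5 CPM in members and 39.6 CPM in weighted Reg3-low cells, and was the gene past 2-fold. Of its 333 UMIs in members, 250 (75.1%) came from 5 cells, without which it stood at 24.1 CPM. Ifi44 was at 31.0 against 14.2 CPM, and 5 cells held 28.3% of its UMIs. Cxcl10, an interferon-induced chemokine, had 50 UMIs in members, 46 of them in 5 cells. Over the list of MHC class I and interferon genes, 12 of 13 were above 0 after weighting, with a median of 0.23 against -0.02 over all genes, and none was 2-fold apart. In enterocyte-like clusters the same list had 6 of 13 above 0 and a median of -0.19. In jejunal Reg3-high cells Rsad2 stood at 21.7 CPM against 38.9 CPM in Reg3-low cells.

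Rps2 and Rpl39, ribosomal protein genes picked after their values were seen, had correlations with Reg3b and Reg3g of opposite sign in the 2 sets of cells. Rps2 had a Spearman rho of -0.19 over 771 epithelial cells and 0.37 over 389 enterocyte-like cells, all from 1 library and thinned to 2000 UMIs, and Rpl39 had -0.13 and 0.35. Oat, a mitochondrial ornithine aminotransferase, had 0.31 and 0.36, and stood at 2162 against 912 CPM in members and Reg3-low cells. Slc40a1, the iron exporter, was at 27.5 against 13.0 CPM after weighting.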
